A study of Homo sapiens with 20 samples.

Results

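The replication-dependent histone genes are the clustered genes, nearly all without introns, that supply the histones packed onto new DNA during S phase. They were taken from the deposited count table as the protein-coding identifiers, each counted a single time, whose symbols are H1-1 to H1-6 or begin with H2AC, H2BC, H3C or H4C followed only by a number. This gave 66 genes of 60671 identifiers, with 6 H1, 16 H2A, 17 H2B, 13 H3 and 14 H4 genes. Of these, 55 lie on chromosome 6 and 11 on chromosome 1. RNA came from 20 samples of hTCEpi, a telomerase-immortalized cell line from the human corneal epithelium, in 4 groups of 5 that were treated for 24 h. The groups were untreated control cells and cells given recombinant human SPARC, a secreted matricellular protein, at 0.05, 0.5 or 5 µg/ml, called SPARC 0.05, SPARC 0.5 and SPARC 5 here. All groups are the same cell line in the same keratinocyte growth medium with added calcium, so any statement holds for this line alone. The labels do not say whether the samples of a group were separate cultures, so p-values measure the spread between these samples, which may be technical.

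As background, core histones H2A, H2B, H3 and H4 form the nucleosome, and the linker histone H1 binds where DNA enters and leaves it. Replication-dependent histone mRNAs are not polyadenylated in cycling cells. Their mRNAs end instead just after a conserved stem-loop that is bound by SLBP and cut with the help of the U7 snRNP. NPAT, a substrate of cyclin E and its kinase, gathers at the clusters in the histone locus body and drives their transcription as cells enter S phase. When replication stops, the mRNAs are degraded, and cells that leave the cycle shift towards replication-independent variants such as H3.3. The libraries were made from total RNA depleted of ribosomal RNA and primed with random hexamers, so they did not depend on a poly(A) tail. In bulk RNA, fewer cells in S phase and less histone mRNA per cell cannot be told apart.

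The stem-loop is shown first, because it is the feature that sets these mRNAs apart. It was searched in the GENCODE v29 transcripts of GRCh38 in the 100 bases after the coding sequence, and it was present in 24 of 31 members (77.4%) whose main annotated transcript reached at least 16 bases beyond the last coding codon, with the stop codon counted among them. Among other coding genes it was present in 7 of 18583 (0.0377%). For 3 more of the 31, H2AC6, H2BC15 and H2BC18, another annotated transcript held it. The other 35 members are annotated with fewer than 16 bases there, so it could not be searched for in them. The sites below are in the sense strand, with the 16-base stem-loop in capitals and 5 bases on each side.
H2AC6: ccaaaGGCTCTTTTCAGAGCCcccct
H2BC4: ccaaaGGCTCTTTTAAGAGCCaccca
H2AC11: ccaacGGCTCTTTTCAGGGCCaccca
H4C5: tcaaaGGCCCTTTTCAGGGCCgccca
H4C14: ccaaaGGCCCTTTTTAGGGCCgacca
Of the 27 members with a site anywhere in an annotated transcript, 15 carried the form of H2AC6, among them H2BC21, H3C10, H3C14 and H3C15. The form of H2BC4 was shared by H2BC5, H2BC7 and H3C8. The forms of H4C5 and H4C14 were found in H4 genes alone, and that of H2AC11 in no other member.

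Promoters differed by family, as is known for these genes. The 300-base RefSeq promoters (GRCh38.p14) of 61 members were searched on both strands for 5 short motifs, and hits may overlap. H2AC7 and H3C4 have the same promoter window and each is counted, so the 61 genes have 60 windows. The CCAAT box (CCAAT) was present for all 49 H1, H2A, H2B and H3 genes with a promoter and in 3 of 12 H4 promoters (25%), against 35.6% of 27244 other promoters. The octamer (ATTTGCAT), which POU factors bind, was present in 73.3% of H2A and 82.4% of H2B promoters, against 1.71% of the others. A TATA motif (TATAAA) was present in 67.2% of member promoters, against 11.8%. The H1 box (AAACACA) was present in all 6 H1 promoters, against 5.74%, and the core of the H4 element (GGTCCG) in 11 of 12 H4 promoters, against 11.1%. The promoters below are of a member of each family that the results name, read in the direction of transcription, with every hit to those 5 motifs on either strand in capitals.
H1-3 (chr6:26234938-26235237, minus strand): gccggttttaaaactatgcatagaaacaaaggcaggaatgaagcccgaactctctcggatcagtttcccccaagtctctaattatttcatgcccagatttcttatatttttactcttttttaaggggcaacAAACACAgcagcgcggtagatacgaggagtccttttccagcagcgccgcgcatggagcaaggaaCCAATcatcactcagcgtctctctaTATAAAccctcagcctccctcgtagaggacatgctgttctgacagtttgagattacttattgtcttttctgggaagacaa
H2AC20 (chr1:149886668-149886967, plus strand): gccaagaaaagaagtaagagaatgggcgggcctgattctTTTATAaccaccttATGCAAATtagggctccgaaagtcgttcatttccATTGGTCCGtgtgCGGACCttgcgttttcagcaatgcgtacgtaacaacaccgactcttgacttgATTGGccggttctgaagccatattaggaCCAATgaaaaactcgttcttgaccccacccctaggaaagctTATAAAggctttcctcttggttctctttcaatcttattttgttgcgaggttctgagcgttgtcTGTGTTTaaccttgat
H2BC12 (chr6:27146809-27147108, minus strand): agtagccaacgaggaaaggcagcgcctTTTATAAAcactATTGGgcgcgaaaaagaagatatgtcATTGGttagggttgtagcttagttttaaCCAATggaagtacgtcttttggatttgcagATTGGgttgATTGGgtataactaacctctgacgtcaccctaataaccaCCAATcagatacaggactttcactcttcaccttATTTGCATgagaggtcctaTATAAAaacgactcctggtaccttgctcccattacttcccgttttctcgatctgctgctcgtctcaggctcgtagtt
H3C13 (chr1:149813644-149813943, minus strand): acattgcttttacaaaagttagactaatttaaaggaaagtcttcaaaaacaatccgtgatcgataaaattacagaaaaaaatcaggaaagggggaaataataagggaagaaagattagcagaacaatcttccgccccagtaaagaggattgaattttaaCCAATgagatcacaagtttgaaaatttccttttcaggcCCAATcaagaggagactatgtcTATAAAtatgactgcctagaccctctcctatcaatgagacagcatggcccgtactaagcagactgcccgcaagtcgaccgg
H4C6 (chr6:26240143-26240442, plus strand): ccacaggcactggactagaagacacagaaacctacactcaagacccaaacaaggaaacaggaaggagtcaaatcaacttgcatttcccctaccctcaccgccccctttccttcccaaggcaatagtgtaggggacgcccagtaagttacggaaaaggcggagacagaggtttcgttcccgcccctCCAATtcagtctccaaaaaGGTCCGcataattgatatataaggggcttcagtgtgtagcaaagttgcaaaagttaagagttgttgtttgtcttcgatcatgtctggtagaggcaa
The promoter of H2AC20 held all 5 motifs, with a CCAAT box on the opposite strand and an H4 element overlapping each other. H4C6 was among the 3 H4 genes with a CCAAT box.

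Total counts per library ranged from 31955358 to 50112286, of which 327214 to 537184 fell on the 66 genes. KRT5, a basal keratin, was at 10800 to 11700 CPM (counts scaled to the library total and corrected with TMM factors for composition). KRT12 and KRT3 of the differentiated cornea were at 0 to 0.111 and 1.28 to 2.08 CPM, so these defining markers were at or near 0. The summed level of 12 corneal and limbal markers was 17800 to 18600 CPM in SPARC 5 cells and 16500 to 17000 CPM in control cells, with 5 rises and 2 falls among 11 tested. Summed stroma and fibroblast markers, of which KERA was at 0 in all libraries and 7 of 10 were under 1 CPM, were at 8.44 to 12.1 CPM in SPARC 5 cells and 7.7 to 10.3 CPM in control cells. Markers of endothelium, melanocytes and immune cells, 10 of 12 under 1 CPM, summed to 3.17 to 4.14 CPM in SPARC 5 cells and 3.88 to 5.19 CPM in control cells. The part of these markers in the histone results was not tested. SPARC 5 was the dose with most responding genes: 2666 of 22938 tested genes passed the threshold there, against 517 at SPARC 0.5 and 61 at SPARC 0.05.

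Most of the histone genes were strongly expressed. Counts were present in all 20 libraries for 61 of 66 genes, 56 averaged at least 10 CPM and 38 more than 100 CPM. H2AC15 had no count in any library, where 3 counts would be 0.0599 to 0.0941 CPM. H1-6, H2AC1 and H2BC1, which encode histones known from testis, had 4, 11 and 7 counts over all 20 libraries, with at most 2 in a library. H3C4 had 9 counts, and H4C7, a divergent H4 gene, had 40. These 6 genes were not tested. H2AC7 and H2AC17 had 172 and 137 counts in all and passed the filter at about 0.2 CPM, so their fold changes carry little information. Their largest values, such as 1.17 ± 0.62 (log2 fold change ± SE) for H2AC7 at SPARC 5, had intervals that held 0. The remaining 58 genes are drawn in the plot of levels.

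**Figure D1:**
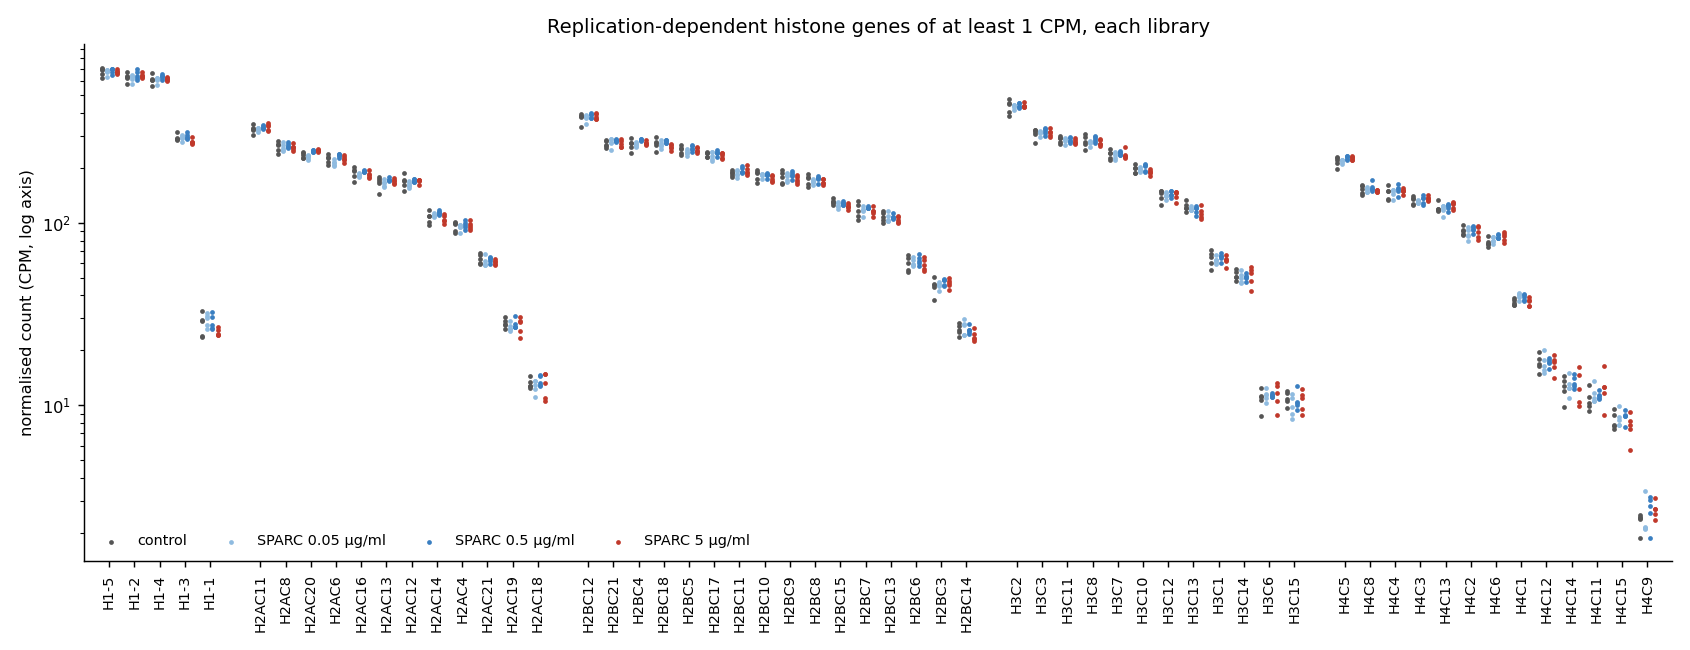
Normalised counts (CPM, log axis) of the 58 replication-dependent histone genes that averaged 1 CPM or more, grouped by family (H1, H2A, H2B, H3, H4 from left to right) and ordered by level. Each point is a library, coloured by SPARC dose, and the points of the 4 groups lie on top of each other for nearly every gene.

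Per kilobase of annotated exon, the highest level in control cells was that of H3C2, at 1058 ± 89.8 CPM per kb (SD, n = 5). H1-5 followed at 992 ± 54.6, H2BC12 at 989 ± 59.6 and H1-2 at 980.2 ± 51.4 CPM per kb, each below H3C2 by less than its SD of 89.8. H1-4 was at 812 ± 46.9 CPM per kb. The annotated exon length of members is uneven, because some carry a long 3′ region and others end at the stop codon. Per kilobase of coding sequence, H2AC11 stood at 838 ± 40.4 instead of 145 ± 7.0 CPM per kb of exon, and H4C5 at 704.5 ± 43.3 instead of 146 ± 9.0. Summed per kilobase of coding sequence in control cells, H2B genes reached 7499, H3 genes 5256, H2A genes 4824, H1 genes 3398 and H4 genes 3322 CPM per kb. H2B genes took 28.3% of the counts of all members, H1 genes 22%, H3 genes 21%, H2A genes 18.5% and H4 genes 10.2%. By position, the early part of the chromosome 6 cluster (chr6:25726132-26285638) held 34 members and 55.2% of the counts, the late part (chr6:27125897-27893843) 21 members and 34.1%, and the chromosome 1 cluster (chr1:149782689-149887916) 11 members and 10.7%.

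Within the H1 family, H1-5, H1-2 and H1-4 held 85.8% of the counts, and the 3 highest genes of the other families between 32.2% (H2B) and 50.4% (H4). H1-5 had 674.6 ± 18.6 CPM in SPARC 5 cells and 675.5 ± 37.2 CPM in control cells (SD, n = 5 each). H2AC11, H2AC8 and H2AC20 led the H2A genes, with 335 ± 14.3, 259.7 ± 9.48 and 249.8 ± 3.16 CPM in SPARC 5 cells, against 327 ± 15.8, 262 ± 16.7 and 235 ± 8.17 CPM in control cells. H2BC12, H2BC21 and H2BC4 led the H2B genes, with 383 ± 13.4, 273 ± 13.1 and 273 ± 6.44 CPM in SPARC 5 cells, against 377 ± 22.7, 271 ± 11.5 and 269 ± 18.7 CPM in control cells. Among H3 genes H3C2, H3C3 and H3C11 were highest, at 439 ± 11.2, 313 ± 14.0 and 280.0 ± 8.2 CPM in SPARC 5 cells and 435 ± 36.9, 308.5 ± 20.2 and 286 ± 11.9 CPM in control cells. H4C5, H4C8 and H4C4 led the H4 genes, at 226 ± 5.28, 149.8 ± 1.76 and 150.1 ± 4.78 CPM in SPARC 5 cells, against 218 ± 13.4, 152 ± 8.22 and 146 ± 11.6 CPM in control cells. The lowest tested genes of the families were H1-1 at 27.7, H2AC17 at 0.181, H2BC14 at 25.7, H3C15 at 10.5 and H4C9 at 2.51 CPM over all libraries. The order of all 66 genes by mean CPM shifted little. Relative to control, 28 genes had another rank at SPARC 5 and 22 at SPARC 0.05, by at most 2 places, and 26 at SPARC 0.5, by at most 3 places.

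Head-to-head neighbours share their promoter region but not always their level. The members form 11 such pairs with starts 219 to 357 bases apart, and 10 of them join an H2A and an H2B gene. In most pairs both genes were well expressed, as for H2AC20 and H2BC21 at 607 ± 21.1 and 718 ± 30.3 CPM per kb of coding sequence in control cells. H2AC7 stood at 0.372 ± 0.21 CPM per kb beside H2BC7 at 309 ± 29.8, and H2AC17 at 0.358 ± 0.226 beside H2BC17 at 629.5 ± 20.5. The annotated exons of 4 members with almost no counts are largely shared with another gene: 98.0% of those of H2AC7 and 100% of those of H3C4 with AL031777.3, 88.0% of those of H2AC17 with H3C12 on the same strand, and 100% of those of H2AC15 with H2BC15 on the opposite strand. How the counting treated reads in shared exons is not given in the sources used here, and the part of this overlap in the low counts was not tested.

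Replicates of a group were close, with a median coefficient of variation of 4.69% over the 56 members of at least 10 CPM, against 4.96% for all genes of that level. Histone genes moved together from library to library within a group. In control replicate 1, 4 of 56 members of at least 10 CPM lay above their own mean over the 20 libraries, and in control replicate 2, 54 of 56 did. The median difference from that mean was −0.107 and 0.102 on the log2 scale in those libraries. SPARC 0.05 replicate 5 also stood low, with 3 of 56 members above their mean, and SPARC 0.5 replicate 3 high, with 53 of 56. The map of differences by library shows these libraries as whole columns of a colour. Group means of the median difference were −0.003 ± 0.081 in control, −0.014 ± 0.044 in SPARC 0.05, 0.029 ± 0.025 in SPARC 0.5 and −0.007 ± 0.042 in SPARC 5 libraries (SD, n = 5 each), so they differed by less than the SD of the control libraries.

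**Figure D2:**
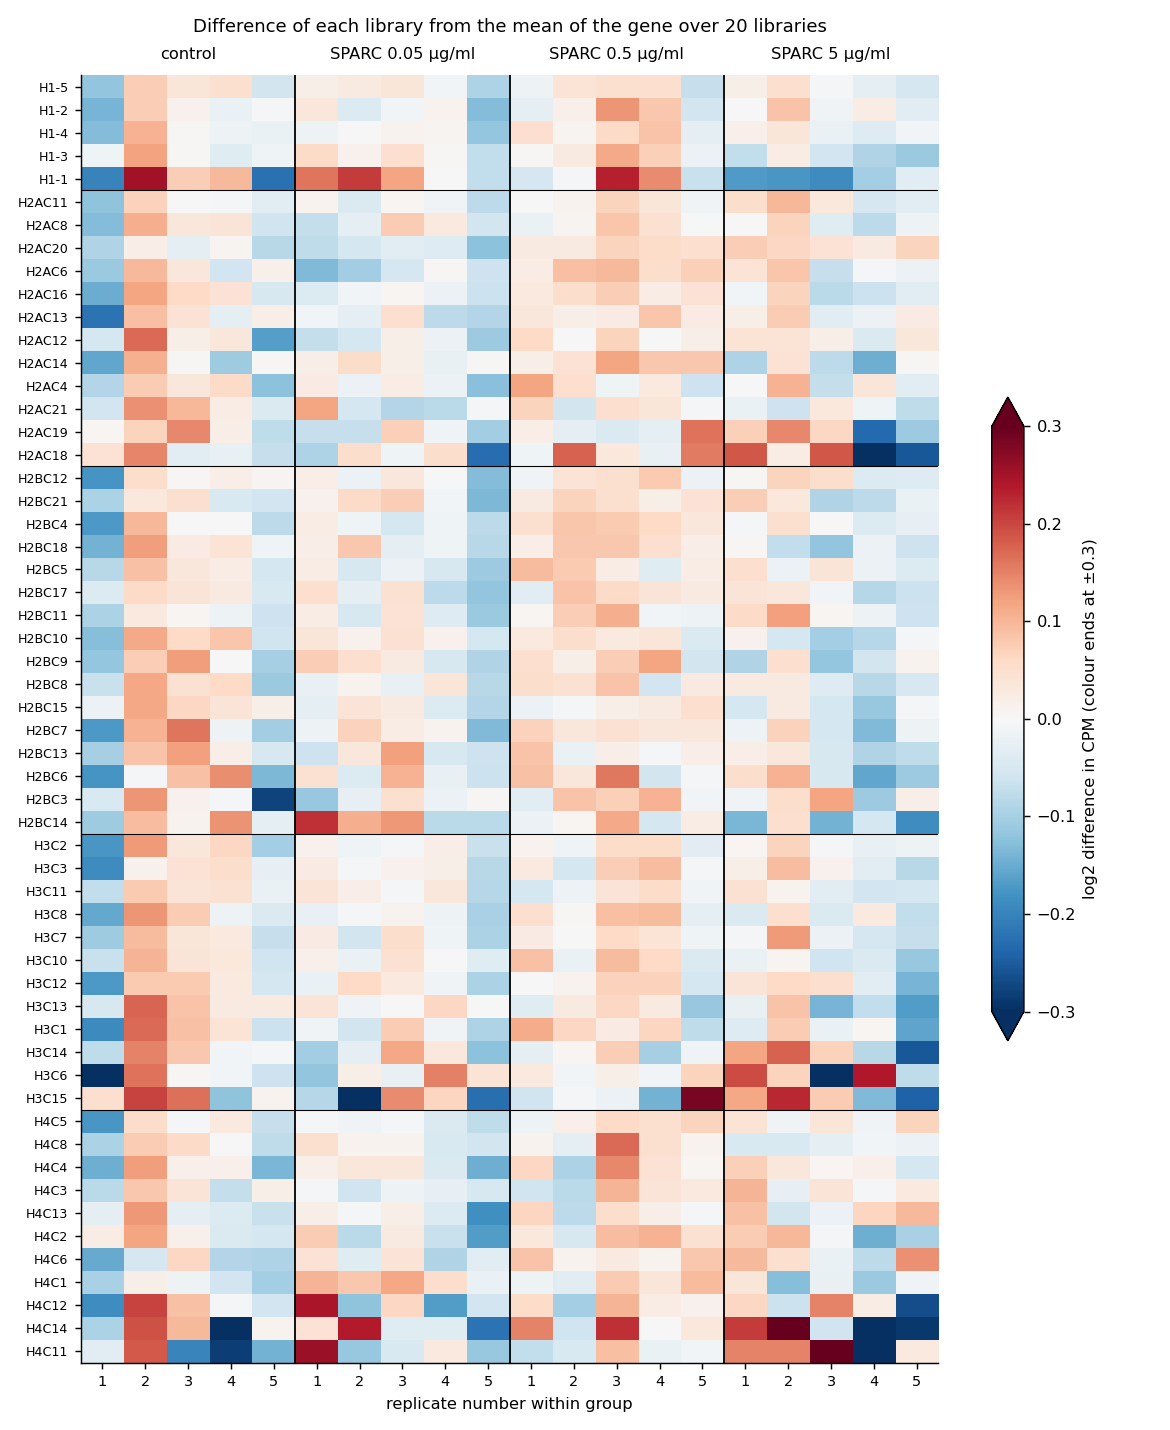
Log2 difference of each library (columns, by group and replicate number) from the mean of the gene over 20 libraries, for 56 replication-dependent histone genes of at least 10 CPM (rows, by family and falling level). Control replicate 1 (4 of 56 genes above their mean) and control replicate 2 (54 of 56) are the columns that differ most within a group.

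The summed share of counts also differed little between groups. In control libraries 1.03 ± 0.0512% of the counts fell on members, with 1.02 ± 0.029% in SPARC 0.05, 1.04 ± 0.0233% in SPARC 0.5 and 0.996 ± 0.0273% in SPARC 5 libraries (SD, n = 5 each). The control libraries alone ran from 0.962% to 1.09%, a range that took in 0.966% to 1.04% at SPARC 5. The Wilson 95% interval of a single library, which covers counting error only, was far narrower, as in control replicate 1 at 0.959% to 0.965%. Each family behaved alike in the plot of shares. H2B genes, for example, took 0.28 ± 0.00786% of counts in SPARC 5 cells and 0.292 ± 0.0144% in control cells, and H4 genes 0.103 ± 0.00218% and 0.104 ± 0.00482%.

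**Figure D3:**
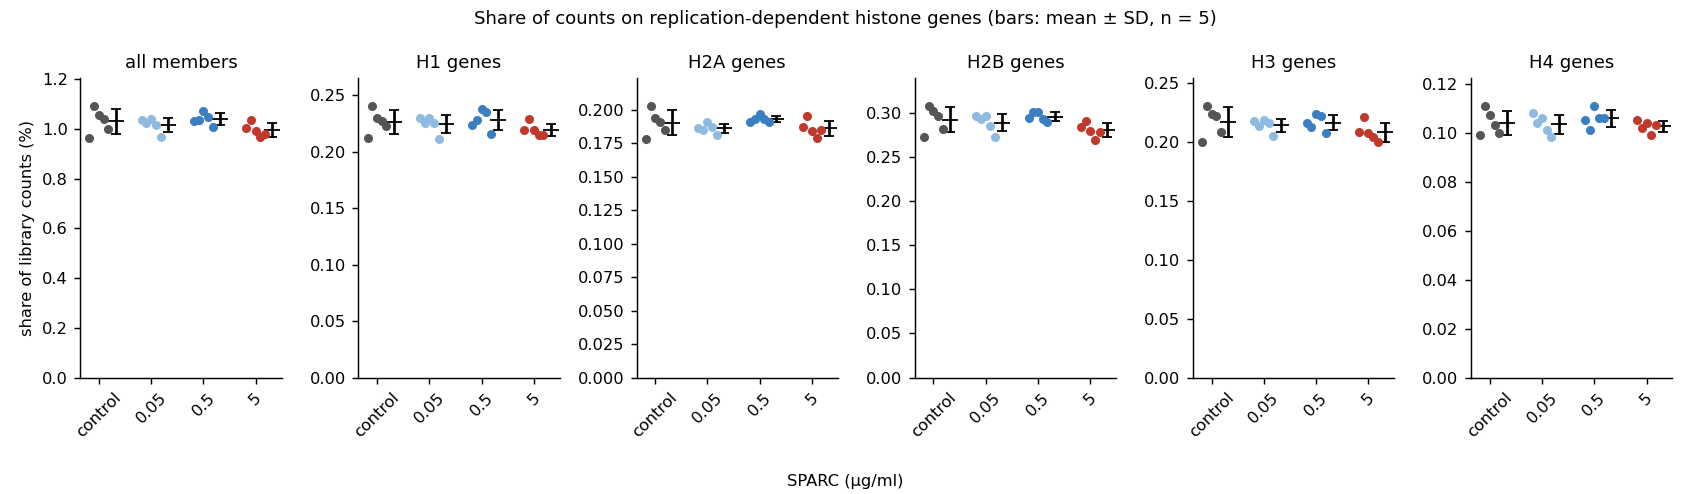
Share of all counts of a library (%) that fell on the 66 replication-dependent histone genes and on each family, by SPARC dose. Points are libraries and bars are mean ± SD (n = 5); the share of all members lies between 0.962% and 1.09% in every group.

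At SPARC 5, 1 of the 60 tested histone genes rose and 1 fell, so 3.33% passed an adjusted p of 0.05 in the quasi-likelihood F-test of edgeR, against 11.6% of all 22938 genes tested (7.05% rose and 4.58% fell). The gene that rose was H2AC20, which encodes an H2A of the chromosome 1 cluster, and the gene that fell was H3C13, which encodes an H3.2 histone in the same cluster. By family, the passing genes were 0 of 5 H1, 1 of 14 H2A, 0 of 16 H2B, 1 of 12 H3 and 0 of 13 H4 genes. The median log2 fold change of the members was −0.001, against −0.007 over all genes. The median size of the change, without its sign, was 0.031 for members and 0.134 for all genes. These medians are not matched for level, as 56 of the 60 members averaged at least 10 CPM and the filter passed genes at about 0.2 CPM. Members of at least 10 CPM lay between −0.14 and 0.22. By cluster, the median was 0.006 for the early part of chromosome 6, 0.001 for the late part and −0.042 for chromosome 1. For 50 of 60 members the 95% interval lay within 0.2 on either side of 0.

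H2AC20 (chr1:149886975-149887364, a gene of 1 exon) had 253, 251, 248, 245 and 252 CPM in SPARC 5 cells, against 226, 244, 236, 242 and 227 CPM in control cells. The lowest SPARC 5 library was just above the highest control library. H2AC20 was the only member whose groups did not overlap (1.67% of 60), against 7.68% of all genes tested. Its log2 fold change was 0.089 ± 0.026 (SE; adjusted p = 0.0102, edgeR). The call was lost without control replicate 1 (0.073, adjusted p = 0.0647), without factors for composition (0.042, 0.307) and without the filter on low counts (0.085, 0.0725).

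H3C13 (chr1:149813271-149813681, a gene of 1 exon) had 116, 125, 107, 112 and 105 CPM in SPARC 5 cells, against 114, 133, 125, 120 and 120 CPM in control cells. The groups overlapped, with 3 SPARC 5 libraries below all control libraries. Its log2 fold change was −0.118 ± 0.036 (SE; adjusted p = 0.0216, edgeR). The call was lost without control replicate 2 or 3 or without SPARC 5 replicate 3, 4 or 5, with adjusted p between 0.0598 and 0.105. It was also lost with corrections for GC content (−0.078, adjusted p = 0.128), for length (−0.051, 0.43) and for both (−0.026, 0.729). Of the 150-base stretches of the H3C13 coding sequence, 12.7% also occur in another histone gene, H3C14 and H3C15 among them. The bases that these stretches cover are a larger share of the sequence, so its counts are uncertain.

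The members next in line at SPARC 5 did not pass. H4C6 (chr6:26240426-26240737) had 87.1, 84.2, 80.4, 77.2 and 89.6 CPM in SPARC 5 cells, against 73.4, 78.7, 85.1, 76.7 and 76.4 CPM in control cells, a log2 fold change of 0.10 ± 0.037 (adjusted p = 0.0683, edgeR). H1-3 (chr6:26234268-26234933), a linker histone, had 276, 295, 279, 273 and 269 CPM in SPARC 5 cells and 288, 316, 291, 283 and 288 CPM in control cells. Most SPARC 5 libraries of H1-3 lay below all control libraries, at a log2 fold change of −0.074 ± 0.028 (adjusted p = 0.0706, edgeR). H2BC15 stood at −0.079 ± 0.031 (adjusted p = 0.0856, edgeR). H4C11 stood at 0.22 ± 0.099 (adjusted p = 0.157, edgeR), with SPARC 5 libraries spread from 8.88 to 16.5 CPM and control libraries from 9.34 to 12.9 CPM. H1-1, the least abundant of the tested linker histones, had 24.5, 24.4, 24.2, 25.7 and 26.9 CPM in SPARC 5 cells and 24, 32.8, 29, 29.5 and 23.6 CPM in control cells, at −0.143 ± 0.069 (adjusted p = 0.206, edgeR).

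At SPARC 0.5 no histone gene passed the threshold in edgeR, against 2.25% of all genes (1.36% rose and 0.894% fell). At an unadjusted p under 0.05 there were 8 members (13.3%), against 13.8% of all genes, and DESeq2 and limma voom each called 1 gene, H2AC20. The values leaned upwards, with 51 of 60 log2 fold changes positive (85.0%), against 48.7% of all genes, and with a median of 0.041 against −0.004. All 5 tested H1 genes, all 13 H4 genes, 12 of 14 H2A, 13 of 16 H2B and 8 of 12 H3 genes were positive. Since the members of a library move together, these signs are not independent of each other, and without an adjustment for composition 44 of 60 were positive. With the correction for GC content and length 59 were positive, with 58 for GC content alone and 56 for length alone. The median was 0.012 without control replicate 1, 0.021 without control replicate 5 and 0.064 without control replicate 2.

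H2AC20 had 245, 245, 252, 250 and 249 CPM in SPARC 0.5 cells, against control values of 226, 244, 236, 242 and 227 CPM, again without overlap (1.67% of members, against 3.1% of all genes). Its log2 fold change was 0.08 ± 0.026 (adjusted p = 0.0761, edgeR). H2BC4 had 283, 290, 289, 285 and 280 CPM in SPARC 0.5 cells and 243, 293, 274, 274 and 259 CPM in control cells, at 0.087 ± 0.028 (adjusted p = 0.0853, edgeR). The control libraries of H2BC4 spanned a wider range than the treated ones. H4C6 stood at 0.10 ± 0.037 (adjusted p = 0.128, edgeR). Among the few negative values, H3C13 stood at −0.061 ± 0.036, H2BC15 at −0.026 ± 0.031 and H3C14 at −0.039 ± 0.059. Without control replicate 2, the library with the highest histone share, 3 members passed at SPARC 0.5, and without control replicate 3, 1 member passed.

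At SPARC 0.05 no histone gene passed in edgeR, DESeq2 or limma voom, against 0.266% of all genes in edgeR (0.187% rose and 0.0785% fell). No member was without overlap with control, against 1.74% of all genes, and 19 of 60 log2 fold changes were positive (31.7%), against 49.1% of all genes. With the correction for GC content and length 44 of 60 were positive, and the median was 0.035 instead of −0.009. The median was also above 0 without control replicate 2 (0.020), control replicate 3 (0.001) or SPARC 0.05 replicate 5 (0.008). At an unadjusted p under 0.05 there were 2 members (3.33%), H4C1 and H2AC6, against 9.13% of all genes. H4C1 had 40.8, 40.2, 41.2, 39.4 and 37.5 CPM in SPARC 0.05 cells, against 35.5, 38.5, 37.6, 36.5 and 35.4 CPM in control cells, a log2 fold change of 0.12 ± 0.048 (adjusted p = 0.387, edgeR). All but 1 of the treated libraries of H4C1 lay above all control libraries. H2AC6 stood at −0.065 ± 0.029 (adjusted p = 0.467, edgeR). Values of H4C6 (0.046 ± 0.037), H1-1 (0.078 ± 0.069), H2BC15 (−0.058 ± 0.031) and H3C15 (−0.141 ± 0.093) were within about 2 SE of 0.

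**Figure D4:**
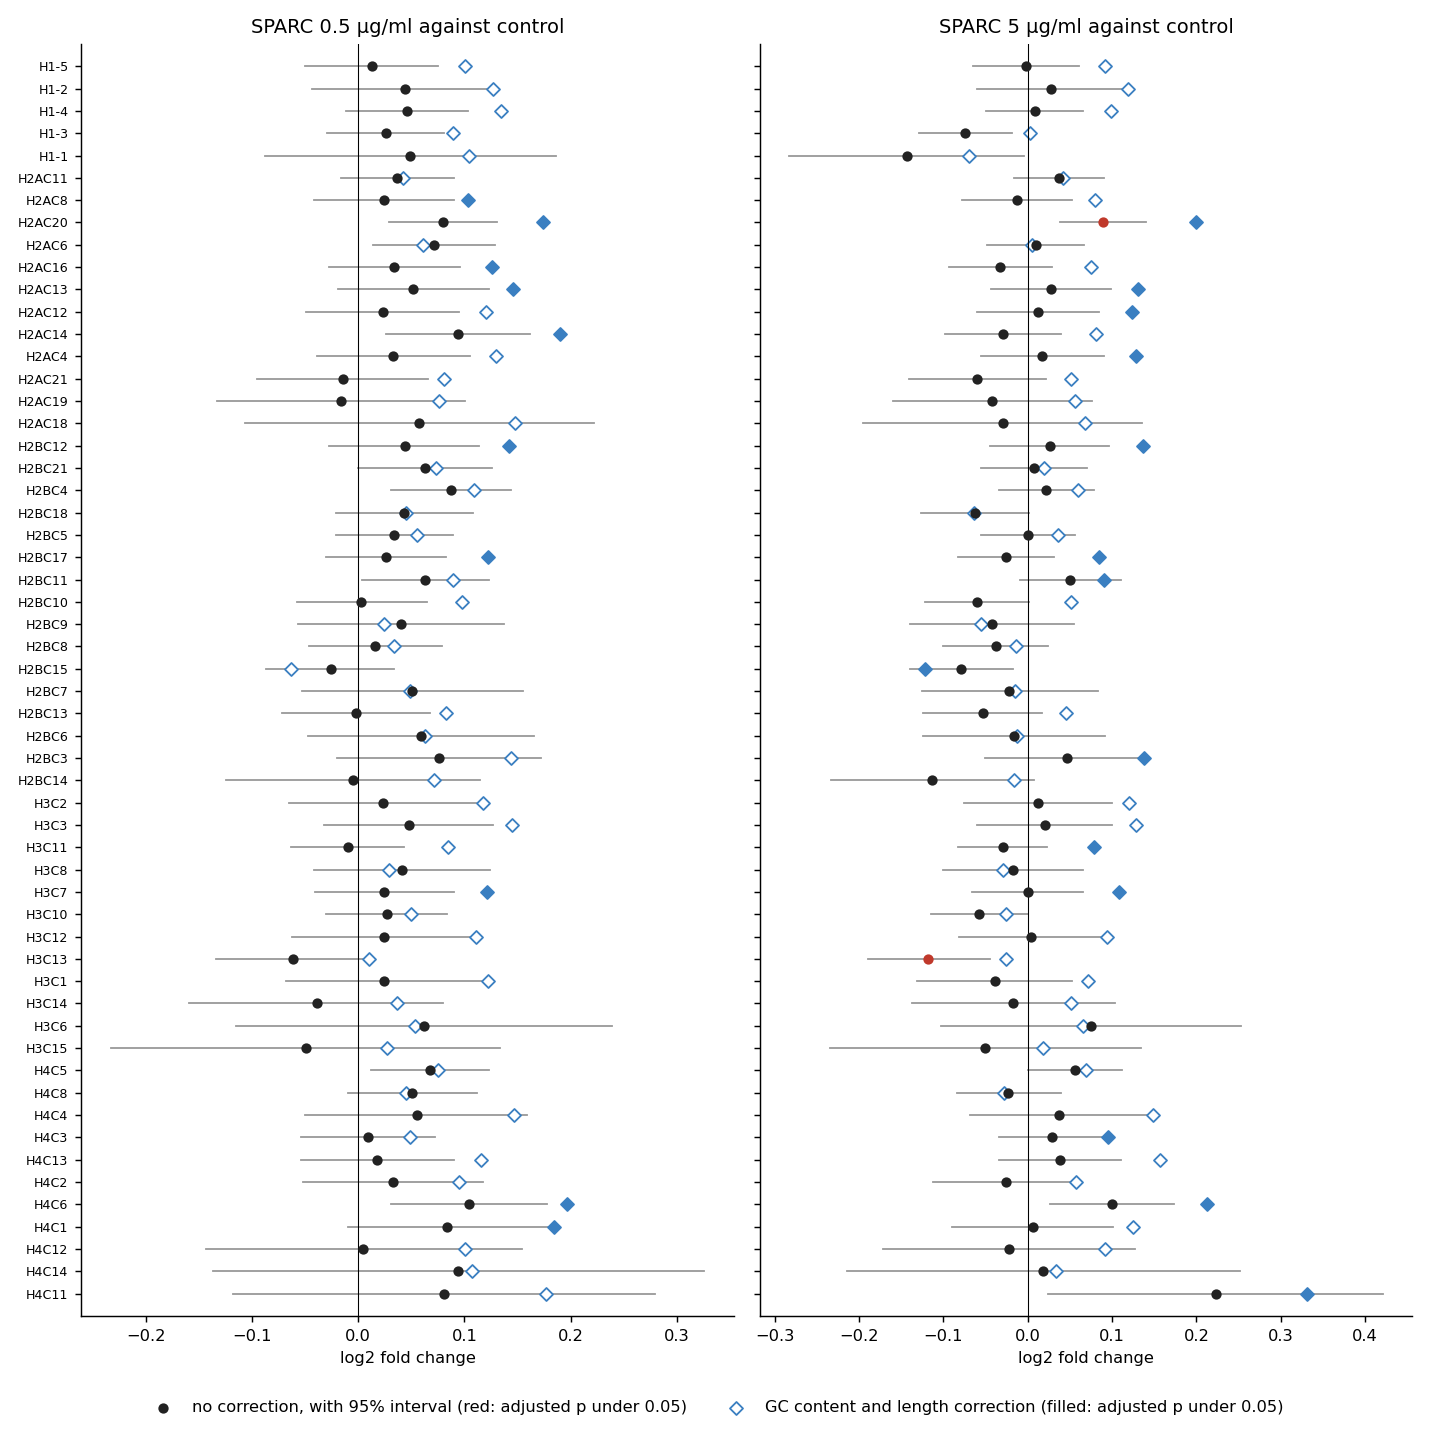
Log2 fold change of 56 replication-dependent histone genes of at least 10 CPM at SPARC 0.5 (left) and SPARC 5 (right) against control. Circles are edgeR estimates with 95% intervals, diamonds the estimates after the trend of each library over GC content and length was removed, and most diamonds lie to the right of their circle.

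In a test of a trend per dose step (control, 0.05, 0.5, 5 µg/ml as equal steps), 2 members rose and 1 fell, 5.0% of 60, against 11.1% of all genes (6.81% rose and 4.27% fell). H2AC20 rose by a log2 value of 0.038 ± 0.009 per step (adjusted p = 0.00153, edgeR). This rise was not even over the steps. The lowest dose gave H2AC20 values of 228, 232, 235, 234 and 221 CPM, a log2 fold change of −0.029 ± 0.026 against control (adjusted p = 0.813, edgeR). The fold changes of the higher doses, 0.08 ± 0.026 and 0.089 ± 0.026, were close to each other. H4C6 rose by 0.036 ± 0.012 per step (adjusted p = 0.0429, edgeR). H3C13 fell by 0.037 on the log2 scale per step, with an SE of 0.012 (adjusted p = 0.0225, edgeR). The trend calls of H4C6 and H3C13 were lost in 13 and 5 of the 20 fits that left out a single library, with adjusted p of 0.0531 to 0.166 and 0.0573 to 0.0959. That of H4C6 was also lost in 3 other settings (adjusted p of 0.0742 to 0.331, limma voom among them), that of H3C13 with corrections for GC content or length (0.12 to 0.657), and that of H2AC20 without factors for composition (0.0878).

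A joint test of the 3 doses and control passed 4 members, 6.67% of 60, against 11.0% of all genes. They were H2AC20 (adjusted p = 0.00015), H2AC6 (0.00336), H2AC14 (0.0377) and H1-3 (0.0391), all by edgeR. The calls of H2AC14 and H1-3 were each lost in 7 of the 20 fits without a library, and that of H1-3 also in limma voom (0.081) and with the correction for length alone (0.103). H2AC6 (chr6:26124145-26139116) is the 1 member with no annotated transcript of a single exon. It had 207, 239, 229, 215 and 226 CPM in control cells and 204, 208, 216, 224 and 214 CPM at SPARC 0.05. The values were 227, 238, 239, 232 and 235 CPM at SPARC 0.5 and 230, 237, 213, 223 and 221 CPM at SPARC 5. Its group mean was lowest at SPARC 0.05 and highest at SPARC 0.5. H2AC14 (chr6:27814354-27814740) had 97.6, 117, 109, 101 and 109 CPM in control cells, 110, 113, 110, 107 and 109 CPM at SPARC 0.05, 110, 112, 118, 115 and 115 CPM at SPARC 0.5, and 102, 112, 103, 98.2 and 109 CPM at SPARC 5. For H1-3, H2AC14 and H2AC20 too, the order of the group means was not that of the doses. Of the 150-base stretches of the H2AC14 coding sequence, 77.9% also occur in H2AC13, so its counts are uncertain.

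**Figure D5:**
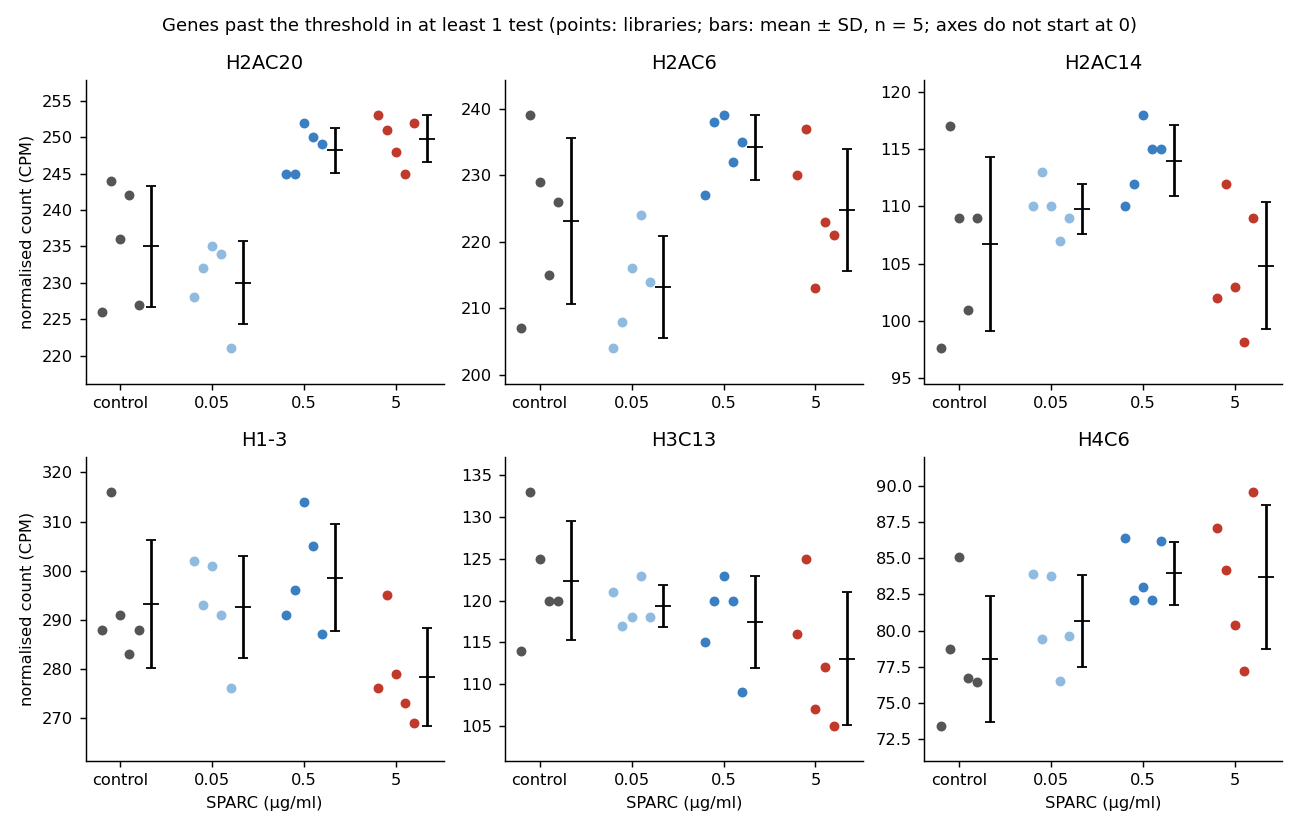
Normalised counts (CPM) of the 6 replication-dependent histone genes past the threshold in at least 1 of the 5 tests, by SPARC dose, with axes that do not start at 0. Points are libraries and bars are mean ± SD (n = 5); H2AC20 at 0.5 and 5 µg/ml (245 to 253 CPM) lies above all control libraries (226 to 244 CPM).

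With a correction for GC content and length together, more histone genes passed. Tested members were shorter than other genes, with a median exon length of 529 bases against 3280, and richer in G and C, with a median of 58.5% against 48.1%. Across 15094 genes, the correlation of GC content with the log2 difference of a library from the 20-library mean averaged 0.128 ± 0.106 in control, −0.035 ± 0.032 in SPARC 0.05, −0.06 ± 0.043 in SPARC 0.5 and −0.04 ± 0.084 in SPARC 5 libraries (SD, n = 5 each). For exon length it averaged −0.077 ± 0.045, 0.001 ± 0.027, 0.009 ± 0.057 and 0.062 ± 0.058 in the same order. These are correlations across genes, which are not independent replicates, and their part in the histone values was not tested. After the trend of each library over GC content and length was removed, 13 members rose and 1 fell at SPARC 5 (23.3%, against 11.1% of all genes), 10 rose at SPARC 0.5 (16.7%, against 1.94%) and none passed at SPARC 0.05, where 7 had an unadjusted p under 0.05. The median log2 fold change of members was then 0.07 at SPARC 5 and 0.101 at SPARC 0.5.

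H2AC20 had the smallest adjusted p of the members with that correction too, at a log2 fold change of 0.199 at SPARC 5 (adjusted p = 2.18e-09, edgeR) and 0.174 at SPARC 0.5 (2.13e-06). H4C6 then rose at both doses, by 0.213 and 0.197, while H3C13 stood at −0.026 at SPARC 5 (adjusted p = 0.729, edgeR). The other members that rose at SPARC 5 were H2AC4, H2AC12, H2AC13, H2BC3, H2BC11, H2BC12, H2BC17, H3C7, H3C11, H4C3 and H4C11, and the 1 that fell was H2BC15 at −0.122. These names were taken after their values were seen. The correction rests on annotated length and GC content, which are uneven among members. Of the 60 tested members, 27 are annotated with under 450 bases of exon, against 8.08% of all genes. H2AC20 is annotated with 390 bases and 62.8% GC, and H2BC15, which fell, with 5477 bases and 39.5% GC. The part of the annotation in these calls was not tested. Which of the settings is closer to the cells was not tested either.

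Several members cannot be told from a copy by their coding sequence. H2AC18 and H2AC19, H3C14 and H3C15, H4C11 and H4C12, and H4C14 and H4C15 are identical in their coding sequence (100%), so how reads were divided between the genes of a pair is uncertain. Their levels in control cells were 13.1 ± 0.787 and 28.2 ± 1.62 CPM for H2AC18 and H2AC19, and 51.7 ± 3.19 and 10.9 ± 0.962 CPM for H3C14 and H3C15. With the counts of each pair summed, the same numbers of members passed, 2 at SPARC 5 and none at the lower doses, where 8 and 2 had an unadjusted p under 0.05. Other members within a family were less alike. Equal-length H2B coding sequences matched at 84.9% to 93.9% of bases. H4 sequences matched at 79% to 100% with a median of 83.8%, where 100% is the value of the identical pairs.

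Of 24 genes of histone pre-mRNA processing and the histone locus body, SYMPK, a scaffold of the cleavage complex, fell at SPARC 5 and at SPARC 0.5 and no other passed. This is 4.17% of the list at either dose, against 11.6% of all genes at SPARC 5 and 2.25% at SPARC 0.5. SYMPK averaged 129 ± 7.81 CPM in SPARC 5 cells and 142 ± 3.66 CPM in control cells, a log2 fold change of −0.145 ± 0.031 (adjusted p = 2.43e-04, edgeR), and at SPARC 0.5 it stood at −0.124 ± 0.03 (0.0108). NPAT stood at 0.094 ± 0.038 (adjusted p = 0.103) and SRRT, which links cap binding to processing, at −0.064 ± 0.026 (adjusted p = 0.109). Of 18 transcription factors and cofactors, the corepressor CTBP1 was the 1 that passed, with a fall at SPARC 5 (−0.111 ± 0.03, adjusted p = 0.00491) and at SPARC 0.5 (−0.116 ± 0.029, 0.0145; 5.56% of the list at either dose). With GC content corrected, CTBP1 did not pass at SPARC 5 (−0.06, adjusted p = 0.21), and 1 gene of the list rose with GC content, length or both corrected. E2F1 stood at 0.11 ± 0.042 (adjusted p = 0.0772).

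Replication-independent variants gave 2 rises and no fall among 12 tested genes at SPARC 5, where 11.6% of all genes passed. H3-3B, which encodes H3.3, averaged 418 ± 10.7 CPM in SPARC 5 cells and 391 ± 9.75 CPM in control cells, a log2 fold change of 0.093 ± 0.025 (adjusted p = 0.00431, edgeR), and did not pass without factors for composition (0.046, 0.221). MACROH2A2 stood at 0.152 ± 0.057 (adjusted p = 0.0673). Of 4 tested histone genes that the naming rule leaves out, H2AW and H2BU1, neighbours in another cluster, fell. H2AW averaged 41.2 ± 2.19 CPM in SPARC 5 cells and 48.8 ± 3.34 CPM in control cells (−0.245 ± 0.046, adjusted p = 2.69e-05), and H2BU1 33.6 ± 2.93 and 39.6 ± 3.37 CPM (−0.24 ± 0.053, adjusted p = 4.15e-04).

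Among 28 chaperone and assembly genes 2 rose and 2 fell at SPARC 5 (14.3%, against 11.6% of all genes). TONSL, which reads new histone H4 behind the fork, fell by 0.151 on the log2 scale (SE 0.027, adjusted p = 9.88e-06), and ATRX and HAT1 rose by 0.132 ± 0.032 and 0.142 ± 0.037 (adjusted p = 0.00169 and 0.0041). Neither rise passed with the correction for GC content and length or without factors for composition. Of 36 genes of S phase and DNA replication, 1 rose and 2 fell at SPARC 5 (8.33%). They were TK1, thymidine kinase (0.103 ± 0.03, adjusted p = 0.014), POLD1, a replicative polymerase (−0.138 ± 0.032, adjusted p = 6.99e-04), and LIG1, which joins Okazaki fragments (−0.133 ± 0.037, adjusted p = 0.00728). TK1 did not pass without factors for composition (adjusted p = 0.244) or without control replicate 1 or 5 or SPARC 5 replicate 2 or 5 (0.0557 to 0.125), nor LIG1 with GC content corrected (0.0924) or without SPARC 5 replicate 5 (0.0559). The summed level of the 36 genes was 4470 to 4590 CPM in SPARC 5 cells and 4480 to 4620 CPM in control cells.

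Of 25 mitosis genes, 1 rose and 1 fell at SPARC 5, 6 rose at SPARC 0.5 (24.0%, against 2.25% of all genes) and 1, CENPF of the kinetochore, rose at SPARC 0.05. At SPARC 5 these were ANLN of the cleavage furrow (0.152 ± 0.026, adjusted p = 2.51e-06) and the kinase PLK1 (−0.091 ± 0.03, adjusted p = 0.0334), 8% of the list. PLK1 did not pass in 5 other settings (adjusted p of 0.051 to 0.354, among them the correction for GC content) or without control replicate 2, 3 or 4 or SPARC 5 replicate 1 or 3 (0.083 to 0.166). TOP2A stood at 0.06 ± 0.027 (adjusted p = 0.153). Those that rose at SPARC 0.5 were ANLN, TPX2, CENPF, TOP2A, KIF11 and MKI67, named after their values were seen, by 0.097 to 0.145 on the log2 scale. The summed level of the 25 genes was 4000 to 4240 CPM in SPARC 0.5 cells and 3680 to 4030 CPM in control cells. The part of these genes in the upward values of the histone genes at SPARC 0.5 was not tested.

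The authors' deposited table for SPARC 5 lists 58 of the 66 genes among 16045 and passes 4 of them at an adjusted p of 0.05, against 16.3% of its genes. In the authors' deposited table H2AC20 rose (log2 fold change 0.077, adjusted p = 0.0244), and H3C13 (−0.136, 0.00757), H1-3 (−0.085, 0.0355) and H2BC15 (−0.093, 0.0368) fell. The authors' deposited tables for SPARC 0.5 and SPARC 0.05 pass none of the 58, against 3.42% and 0.686% of their genes, and at SPARC 0.5 H2AC20 has the adjusted p of 0.0792 there.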

How the data were processed

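RNA was measured in 20 samples of hTCEpi cells, in 4 groups of 5 taken from the labels. Raw read counts per Ensembl gene were deposited by the authors. Per the submitters' processing notes, STAR 2.7.9a, featureCounts 2.0.3 and Salmon 1.5.2 were used on GRCh38; the sources used here do not give the annotation release, the strand setting or the treatment of reads that match several genes. The authors also deposited a table per dose with log2 fold changes, p-values and scores (t and B statistics) for each gene, used only where named. The 66 members and the lists of related genes were chosen with earlier results of these data known.

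For 168 identifiers on several entries, 1 entry was kept. Genes were filtered with filterByExpr (minimum count 10), scaled with TMM factors and tested in edgeR 4.0.16 (quasi-likelihood, robust, all 20 samples in 1 model) under R 4.3.3, with p-values adjusted by Benjamini-Hochberg over 22938 genes and a threshold of 0.05. SE is the log2 fold change divided by the square root of F. limma 3.58.1 (voom) and DESeq2 1.42.0 were alternatives, with other scalings, no filter, a replicate block, a per-library spline correction for GC content and length, and each library left out in turn. GC content, length and coding sequence came from GENCODE v29, where 64 members matched by identifier and 2 through their Entrez number, and promoters from RefSeq (GRCh38.p14). The fit was tested on simulated data with known changes at SPARC 5. It recovered 28% of 50 changes of 1.1-fold, 80% at 1.25-fold and 98% at 1.5-fold, with 8 false calls among 22442 genes. H2AC20 changed 1.064-fold at SPARC 5, so members that did not pass may have changed by as much. The common biological coefficient of variation was 6.68%, and the chi-square per gene of 40 replicate pairs was 4.09 to 9.55, so no library was counted as a copy of another.

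Members were named if they passed any of the 5 tests, if they were among the 3 highest of a family, or if they had the 3 smallest p of either sign in a comparison with control. Of related lists, at most 3 genes with the smallest p at SPARC 5 were named, and every gene of the processing and variant lists that passed, except 1 that is not reported here.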

Additional observations from a re-analysis of the deposited data

Results flagged for a closer look

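Among 128 groups of 5 libraries tested for a library far from the other 4 (Dixon's ratio at the 95% level), 7 stood out. This is close to the 1 in 20 that chance alone gives, so the count itself does not set these libraries apart. For H1-3, control replicate 2 had 316 CPM, and the other 4 control libraries 283 to 291. For H1-4, SPARC 0.05 replicate 5 had 569 CPM, and the others 610 to 621. For H2BC12, control replicate 1 had 337 CPM, and the others 382 to 395. For H3C3, SPARC 0.05 replicate 5 had 295 CPM, and the others 311 to 318. For H3C15, whose coding sequence equals that of H3C14, SPARC 0.5 replicate 5 had 12.7 CPM, and the others 9.46 to 10.4. The summed H1 share of SPARC 0.05 replicate 5 was 0.211% of counts, and that of the others 0.226% to 0.23%. The summed H1 share of SPARC 5 replicate 2 was 0.229%, and that of the others 0.215% to 0.219%. Of these libraries, control replicates 1 and 2 and SPARC 0.05 replicate 5 are also those in which nearly all histone genes stood low or high together.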

How the results depend on the processing

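Without factors for composition, 8 members passed at SPARC 5, all lower, with 6 in the trend and 10 in the joint test. At SPARC 5 and in the trend this was 13.3% and 10% of members, against 13.9% and 13.3% of all genes. The median over all genes at SPARC 5 was then −0.054, and the share of passing genes that rose was 31.3% instead of 60.6%. It was 28.8% instead of 60.3% at SPARC 0.5, 47.8% instead of 70.5% at SPARC 0.05 and 30.7% instead of 61.4% in the trend. Without the filter on low counts, 1 passed at SPARC 5 (1.54%, against 5.16% of all genes). With the correction for GC content and length, 14, 10, 20 and 17 members passed at SPARC 5, at SPARC 0.5, in the trend and in the joint test. The share in the trend was 33.3% of members, against 10.8% of all genes. Corrections for GC content or length alone were added after the data were seen. GC content alone gave 3 at SPARC 5, 6 at SPARC 0.5, 3 in the trend and 10 in the joint test, and length alone 7, 7, 11 and 9. Outside the joint test, GC content alone passed 5%, 10% and 5% of members, against 10.9%, 1.96% and 10.5% of all genes. Length alone passed 11.7%, 11.7% and 18.3%, against 11.5%, 2.41% and 11.3%. limma voom and DESeq2 each passed 1 at SPARC 0.5 (1.67% and 1.72%, against 2.4% and 4.86% of all genes). No alternative passed a member at SPARC 0.05, where over all genes 61 passed and 12, 19 and 33 did with the corrections for both, GC content and length, and 174 by DESeq2.

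With the correction for both, 17 of 60 members had the other sign at SPARC 5, 8 at SPARC 0.5 and 28 at SPARC 0.05; 2 of them, H2BC17 (0.084 instead of −0.026) and H3C11 (0.078 instead of −0.030), then rose at SPARC 5. Among members with the 3 smallest p of either sign in the comparison, the sign changed for H1-3 at SPARC 5 (0.003 with the correction for both). It also changed for H3C13 at SPARC 0.5 (0.010) and H3C14 at SPARC 0.5 (0.037, and 0.028 with GC content alone). Other named members changed sign too, among them H2AC8 at SPARC 5 (0.08 instead of −0.013) and H2AC20 at SPARC 0.05 (0.044 instead of −0.029). Replicates with the same number were not treated as paired in the main fit. None of 30 such pairs of libraries correlated above 0.1, with a median r of 0.0137 against −0.00141 for other pairs between groups. Still, 11 of 20 libraries correlated best with their own number, more than equal odds over the 5 numbers would give. Whether libraries of the same number were handled together was not tested. With the replicate block, 1 member passed at SPARC 0.5 (1.67%, against 2.67% of all genes) and 8 in the joint test. Without it the counts were 0 and 4. The block together with the correction for both gave 21 at SPARC 5, 21 at SPARC 0.5, 25 in the trend and 25 in the joint test. The shares outside the joint test were 35%, 35% and 41.7% of members, against 11.6%, 2.43% and 10.9% of all genes. In that setting H1-3, H3C13 and H3C14 stood at 0.003, 0.011 and 0.038.

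When 1 library was left out, the count of members was 1 to 4 at SPARC 5, 0 to 3 at SPARC 0.5, 0 to 0 at SPARC 0.05, 1 to 3 in the trend and 2 to 7 in the joint test, and over all genes it was 22 to 82 at SPARC 0.05 and 267 to 611 at SPARC 0.5. The counts that moved most were those without control replicate 1 (4 at SPARC 5, 7 in the joint test), control replicate 2 (3 at SPARC 0.5, 1 in the trend, 7 in the joint test), control replicate 3 (1 at SPARC 0.5), SPARC 5 replicate 2 (4 at SPARC 5) and SPARC 5 replicate 5 (1 at SPARC 5 and in the trend); the joint test passed 2 without SPARC 0.5 replicate 3 or 4 or SPARC 5 replicate 1 or 3. H2AC14 and H1-3 each lost the joint call in 7 of these 20 fits, and H1-3 also in limma voom (adjusted p = 0.081) and with length alone corrected (0.103). Without mitochondrially encoded genes in the total, the histone share was 1.032% at SPARC 5, 1.079% at SPARC 0.5 and 1.057% at SPARC 0.05, against 1.069% in control.

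In the related lists, scaling by library size alone gave more falls at SPARC 5 (9 of 28 chaperone genes, 9 of 36 S phase genes, 4 of 25 mitosis genes and 3 of 24 processing genes), and the correction for both gave 4 rises among variants and 3 among S phase genes. The cause of these changes was not tested. At this depth the precision of well-expressed members is set by the spread between libraries, and that of H2AC7, H2AC17 and the 6 untested genes by counting.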
